A study of Mus musculus with 4 samples.

Results

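The regions described here are the ATAC-seq peaks of mouse aorta that carry a core site for CTCF close to their summit. A peak was taken when the 300 bp around its summit held, on either strand, the 12-bp sequence C, C, A, C or G, C or T, A, G, A or G, G or T, G, G, C. This rule gave 398 of the 20655 control female peaks on chromosomes 1 to 19 and 1271 of the 40483 VEDS male peaks. Together they covered 1363 different sites. The label rests on sequence alone, since no binding of CTCF was measured.

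Aortic nuclei were prepared from control (*Col3a1*+/+) and VEDS (*Col3a1*G938D/+) mice on a C57BL/6J background at P60, without any drug. The VEDS mice carry a glycine substitution in type III collagen and model vascular Ehlers-Danlos syndrome. There were 4 libraries, 1 for each genotype and sex, and each pooled the tissue of 2 mice. A single-cell ATAC kit was used, but the peaks were called on each library as a whole. They therefore average over all cell types among the nuclei, which need not all come from the aortic wall.

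The 2 libraries with long lists differ in both genotype and sex, which therefore cannot be told apart, and no test between genotypes was possible. Of the 6 marker genes of vascular smooth muscle cells (VSMCs) examined, all had a promoter peak in both long lists and none in the short ones. Promoter peaks were also listed at 1 of 4 endothelial, 2 of 4 fibroblast and 1 of 3 striated muscle markers in the control female list, and at 3 of 4, 1 of 4 and 3 of 3 in the VEDS male list. None of the 3 immune markers had one in any list, and of the 3 adipocyte markers only *Plin1* did, in the VEDS male list. A member's summit had a median of 12 fragments (control female) and 18 fragments (VEDS male), against 14 and 22 at the other peaks. Over 3 kb from any TSS, members and others had equal medians, 11 in the control female list and 17 in the VEDS male list. Nearer to a TSS the medians were 14 against 17 and 23 against 31. The short lists held 1 member among 1081 control male peaks on these chromosomes and 3 among 468 VEDS female peaks. A region without a peak was not taken as closed.

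CTCF is a zinc finger protein that binds a long DNA sequence in a fixed direction. Cohesin, a ring-shaped complex that extrudes loops of chromatin, is held up where it meets bound CTCF, and loops form mostly between a pair of sites that point towards each other. CTCF sites lie at the borders of chromatin domains, near promoters and at insulators, and most are shared by many cell types. Since the site is not symmetric, each has a strand, and the sequences below are written along it from 5′ to 3′.

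These 9 sites, read from the GRCm38 reference, are shown because they lie at loci of arterial wall genes, of genes the study discusses, of *Myc* or of *Ctcf* itself, or under the members of highest −log10 q. Each has the core in capitals with 24 bases on either side.
*Ctcf*, chr8:105622542-105622601, plus strand: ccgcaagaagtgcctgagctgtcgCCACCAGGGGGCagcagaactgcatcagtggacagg
*Myc*, chr15:61983407-61983466, plus strand: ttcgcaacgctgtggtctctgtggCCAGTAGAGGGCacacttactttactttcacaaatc
*Col1a1*, chr11:94937152-94937211, minus strand: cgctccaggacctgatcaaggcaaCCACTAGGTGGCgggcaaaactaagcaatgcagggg
*Col3a1*, chr1:45314110-45314169, minus strand: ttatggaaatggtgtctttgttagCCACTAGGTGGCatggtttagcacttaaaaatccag
*Myh11*, chr16:14237478-14237537, plus strand: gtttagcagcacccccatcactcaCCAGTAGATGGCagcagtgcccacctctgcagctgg
*Prkag2*, chr5:25006941-25007000, plus strand: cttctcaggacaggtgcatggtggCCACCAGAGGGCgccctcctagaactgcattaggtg
*Pif1*, chr9:65605604-65605663, plus strand: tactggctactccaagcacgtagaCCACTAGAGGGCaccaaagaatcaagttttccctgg
*Calr*, chr8:84847083-84847142, minus strand: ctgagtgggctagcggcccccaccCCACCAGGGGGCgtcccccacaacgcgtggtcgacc
*Stard3nl*, chr13:19395883-19395942, plus strand: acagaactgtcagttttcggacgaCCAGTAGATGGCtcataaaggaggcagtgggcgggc

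The base after the core was a purine at all of these except *Stard3nl*. *Col1a1* and *Col3a1*, which encode the main fibrillar collagens of the aortic wall, carried the same 12-base core, both on the minus strand of the reference, opposite to the direction of these genes.

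Some members held several sites in a row. The 300 bp around the control female summit in an intron of *Eif3b*, a gene for a subunit of translation initiation factor 3, held 5 cores, all on the minus strand. This window is shown because no other member held as many, with the cores in capitals.
*Eif3b*, chr5:140439154-140439453, minus strand: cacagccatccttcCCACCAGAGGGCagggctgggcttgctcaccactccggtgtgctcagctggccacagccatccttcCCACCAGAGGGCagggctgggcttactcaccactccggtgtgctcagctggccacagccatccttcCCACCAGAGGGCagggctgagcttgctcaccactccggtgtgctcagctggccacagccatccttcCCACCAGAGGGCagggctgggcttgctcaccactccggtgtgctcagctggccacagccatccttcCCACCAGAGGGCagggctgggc
These 5 belong to a row of 15 identical cores at chr5:140438702-140439637, each 66 bp from the next. The VEDS male list had an overlapping peak there, with 4 of the cores in its window. These peaks ranked 14263 of 21176 and 25375 of 41444 by −log10 q, with 10 fragments at the control female summit and 17 at the VEDS male summit.
Another row of 4 cores lay 11503 bp from the nearest TSS, that of *Gapt*, and was a member in the VEDS male list alone (12 fragments at the summit). Its cores are 49 bp apart, again on the minus strand.
*Gapt*, chr13:110368607-110368906, minus strand: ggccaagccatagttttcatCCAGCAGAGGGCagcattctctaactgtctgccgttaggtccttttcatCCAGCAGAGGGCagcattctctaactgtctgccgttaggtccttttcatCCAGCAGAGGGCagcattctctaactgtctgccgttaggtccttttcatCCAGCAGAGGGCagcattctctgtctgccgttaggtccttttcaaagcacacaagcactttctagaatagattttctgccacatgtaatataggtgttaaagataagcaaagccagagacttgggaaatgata
Reads from such rows may align to more than 1 place. Of the 1363 sites, 17 (1.25%) had 60 bases, core included, that occur more than once on chromosomes 1 to 19.

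The core was found near summits far more often than along the chromosomes. Of 7986009 windows of 300 bp that tile chromosomes 1 to 19, 0.147% held a core, against 1.93% of control female windows (95% interval 1.75 to 2.12) and 3.14% of VEDS male windows (2.97 to 3.31). These shares were 13.1 and 21.4 times that of the tiles. Cores were also concentrated at the summits themselves. Their density in the summit windows was 68.5 per Mb in the control female list and 111 per Mb in the VEDS male list, against 7.99 and 8.18 per Mb at 500 to 1000 bp from the same summits. Most members held a single core, 390 of 398 and 1253 of 1271. All intervals given here are Wilson intervals, or Newcombe intervals for differences, and cover counting error within 1 library only, since peaks of a library are not replicates.

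**Figure D1:**
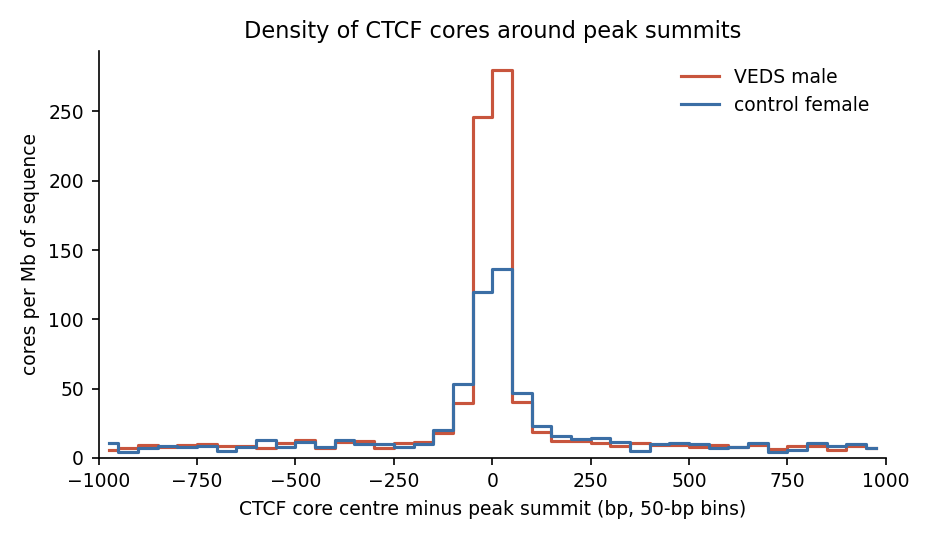
Density of CTCF cores (per Mb of sequence, 50-bp bins) by distance of the core's centre from the peak summit (bp), over all peaks of the control female and VEDS male lists on chromosomes 1 to 19. Both lines rise at the summit, from about 8 per Mb in the flanks (7.99 and 8.18 beyond 500 bp).

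The summit of a member seldom lay on the core itself. It was within 10 bp of the core's centre at 3.91% of the 409 control female sites and 5.88% of the 1293 VEDS male sites, and between 20 and 50 bp from it at 57.7% and 69.4%. The median distance was 38.5 bp (quartiles 28.5 and 64.5) and 31.5 bp (24.5 and 41.5). Along the strand of the site, summits gathered on either side of the core with a gap between them. In the VEDS male list 24.7% of summits fell in the 10-bp bin centred 35 bp to the 3′ side and 15.7% in that centred 25 bp to the 5′ side, and the same bins were the fullest on their sides in the control female list (17.1% and 12.2%). The 3′ side held more summits, 252 of 409 in the control female list (61.6%, 56.8 to 66.2) and 820 of 1293 in the VEDS male list (63.4%, 60.8 to 66.0).

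**Figure D2:**
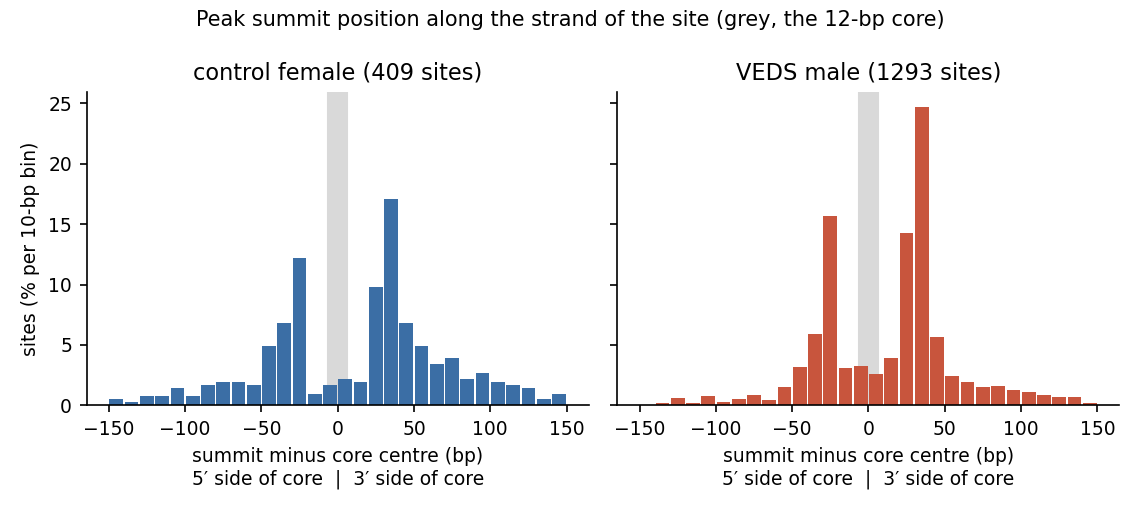
Position of the peak summit relative to the centre of the CTCF core along the strand of the site (bp), as the share of sites in 10-bp bins, for 409 control female and 1293 VEDS male sites. The 12-bp core (grey) lies in a trough between 2 groups of summits, of which the 3′ group is the larger (61.6% and 63.4% of sites).

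The side was largely the same in both libraries. At the 339 sites that lay in summit windows of both lists, the summits were on the same side of the core at 277 (81.7%, 77.2 to 85.5), with 186 on the 3′ side and 91 on the 5′ side. The summits of the 2 lists were a median of 17.0 bp apart and within 10 bp of each other at 39.8%. Distal members, over 3 kb from any TSS, had their summits at a median of 31.5 bp from the core in the VEDS male list and promoter-proximal members at 32.5 bp. In the control female list the medians were 36.5 and 40.5 bp. Each list was split by −log10 q into 5 rank groups of equal size. Sites in the highest of these had the most distant summits, with medians of 51.5 bp (control female) and 40.5 bp (VEDS male). The site at *Prkag2*, the gene of a regulatory subunit of AMP-activated kinase, was among these, and its summit lay 89.5 bp to the 3′ side of the core in both lists.

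The bases around the core, which the rule did not use, differed between sites in peaks and the other 10882 cores of chromosomes 1 to 19. The base after the core was a purine at 92.4% of sites in peaks and 72.0% of other cores, and the following base C or G at 82.2% and 62.7%. The third base before the core was T at 46.4% against 34.1%, and A at 12.1% against 26.9%. Counted from the genome, 16.7% of the 6323 cores followed by a purine and then C or G lay in a window of either list (15.8 to 17.7), against 5.13% of the 5922 others (4.60 to 5.73). The pattern places purines and G or C on the 3′ side of the core, where the longer textbook consensus of CTCF continues.

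The core itself also varied among its 16 forms, all of which were present. With C at the fourth position, 15.0% of 5255 cores lay in a window of either list (14.1 to 16), and with G, 8.21% of 6990 (7.59 to 8.88). With G at the eighth position the share was 13.7%, and with A 9.15%. The fifth and ninth positions differed less, with 11.6% for C against 10.4% for T and 11.6% for G against 10.6% for T. CCACCAGGGGGC, the form of the sites shown for *Ctcf* and *Calr*, had the highest share, 155 of 796 cores (19.5%). CCAGTAGAGGGC, the form at *Myc*, had the lowest, 32 of 973 (3.29%). The commonest form in peaks was CCAGCAGAGGGC with 174 sites, or 12.8% of sites in peaks and 16.1% of other cores.

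The share also varied with the position of the core. Of the cores within 1 kb of a TSS, 22.1% lay in a window of either list (19.9 to 24.5), and beyond 50 kb only 2.99% (2.21 to 4.05). Peaks of any kind gathered near TSSs, with 56.7% of all control female and 46.6% of all VEDS male peaks within 3 kb. The share of sequence in general that lay in a window was not computed, so this gradient is not particular to cores. Cores in bases masked as repeats were in a window at 4.96% (4.10 to 5.98) and the others at 12.4% (11.8 to 13). Masked sites thus made up 7.48% of sites in peaks and 18% of other cores. Peaks without a core also seldom lay in repeats. Masked bases made up 33.5% of these chromosomes, but only 3.61% of the other control female windows and 4.93% of the other VEDS male windows were over 50% masked. How well reads from repeats could be aligned was not tested.

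Annotation of the members differed from that of the other peaks in both lists, in the same direction. Fewer lay within 1 kb of a TSS and more lay 1 to 3 kb from one or between genes. In the control female list 37.9% of members were within 1 kb of a TSS against 10127 of the 20257 other peaks (difference −12.1 percentage points, −16.7 to −7.14), and 30.2% were intergenic against 19.1% (11, 6.68 to 15.7). In the VEDS male list 21.5% were within 1 kb against 38.4% (−16.9, −19.2 to −14.6), and 34.5% were intergenic against 22.1% (12.4, 9.81 to 15.1). Within 3 kb of a TSS were 199 of the 398 control female members, where all peaks of the list gave 56.7%, and 457 of the 1271 VEDS male members (36.0%), where all peaks gave 46.6%. Members far from any TSS were rare as well. Beyond 50 kb from a TSS were 5 control female members (1.26%, against 5.11% of other peaks) and 36 VEDS male members (2.83%, against 6.28%).

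**Figure D3:**
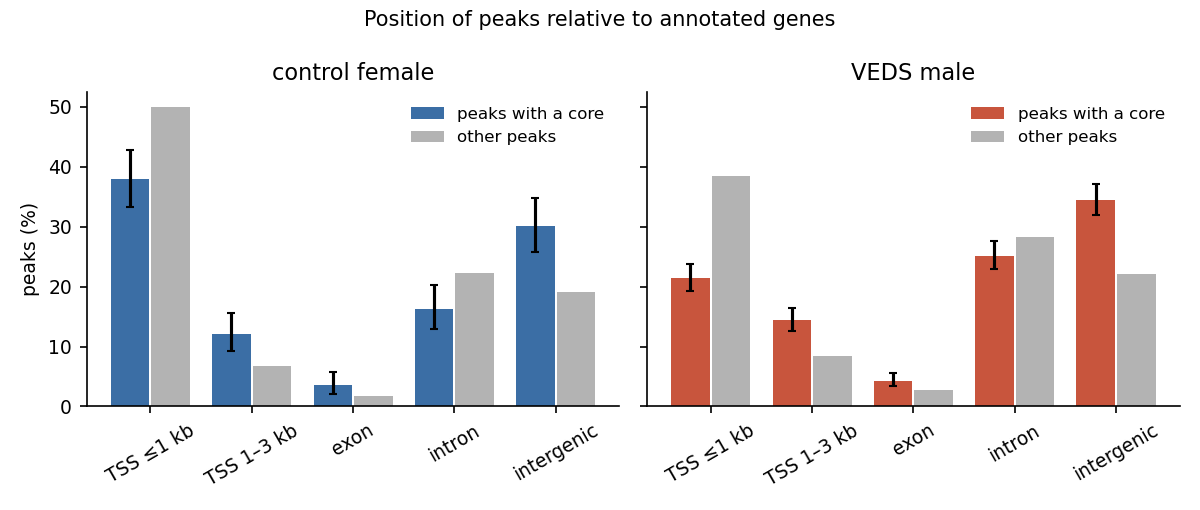
Share of peaks (%) by position relative to GENCODE genes, for peaks with a CTCF core (coloured, with 95% Wilson intervals) and the other peaks of the same list (grey). In both lists the coloured bar is lower within 1 kb of a TSS (37.9% and 21.5% of members) and higher between genes (30.2% against 19.1%, 34.5% against 22.1%).

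Of the 1363 sites, 666 were intergenic, 572 intronic, 52 in a UTR, 43 in exons of noncoding transcripts and 30 in coding sequence. The median distance from a site to the nearest TSS was 5606 bp, against 9920 bp for other cores, and 3 sites covered a TSS. Of the 489 sites within 3 kb of a TSS, 52.6% lay on the strand of that transcript (48.1 to 56.9), so that no preference for either direction was detectable.

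Peaks with a core were narrower than the others. Their median width was 206 bp in both lists, against 250 bp at other control female peaks and 291 bp at other VEDS male peaks, and 188 against 224 bp and 196 against 252 bp among distal peaks only. The fold enrichment over the local background had a median of 6.60 against 7.05 in the control female list and 6.44 against 6.56 in the VEDS male list. Among distal peaks the members were slightly the higher, with 6.39 against 6.23 and 6.40 against 5.98. Among promoter-proximal peaks they were the lower, with 7.12 against 7.95 and 6.47 against 7.77. The AP-1 sequence (T, G, A, C or G, T, C, A, on either strand) was in 7.54% of control female member windows (5.33 to 10.6) and 11.8% of the others, and in 6.22% of VEDS male member windows (5.02 to 7.68) and 11.9% of the others.

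By rank, cores were scarce among the peaks of highest −log10 q. In the VEDS male list 1.24% of the highest rank group held a core, 4.78% of the middle group (4.33 to 5.26) and 2.43% of the lowest. In the control female list the share was 1.18% in the highest group and at most 2.76%, in that next to the lowest. Distal peaks held a core more often than promoter-proximal ones, 2.22% against 1.70% in the control female list and 3.76% against 2.43% in the VEDS male list. When the VEDS male list was limited to as many peaks as the control female list holds, 2.62% of its peaks held a core.

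Most control female members had a counterpart in the VEDS male list. A peak there overlapped 359 of the 398 (90.2%, 86.9 to 92.7), where all control female peaks gave 95.2%. Against peaks without a core the difference was −5.09 percentage points (−8.42 to −2.53). In the other direction, 356 of the 1271 VEDS male members overlapped a control female peak (28.0%, 25.6 to 30.5), where all VEDS male peaks gave 47.6%. Against the other peaks of that list the difference was −20.2 percentage points (−22.7 to −17.7).

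This gap in the VEDS male list was present in every rank group except the highest, where members and others had 96.0% and 97.7%. In the next group 56.6% of members overlapped against 75.7% of others, in the middle group 22% against 40.2%, then 8.96% against 18.5% and 3.06% against 7.61%. With the other peaks weighted to the members' rank groups and distance classes, their overlap was 40.5% and the difference −12.5 points. Peak width was not among the weights, though members were narrower, with a median of 206 bp against 291 bp. Its part in the overlap was not tested. Among promoter-proximal peaks the difference was −20.1 points (−24.6 to −15.5) and among distal peaks −16.5 (−19.3 to −13.5). In the control female list members and others differed by less than 1 percentage point in the 2 highest rank groups. The difference was −2.96 points in the middle group (−10.1 to −0.308), −5.26 in the next (−12.1 to −1.03) and −13.9 in the lowest (−25.0 to −4.57), where 67.9% of members and 81.9% of others overlapped.

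**Figure D4:**
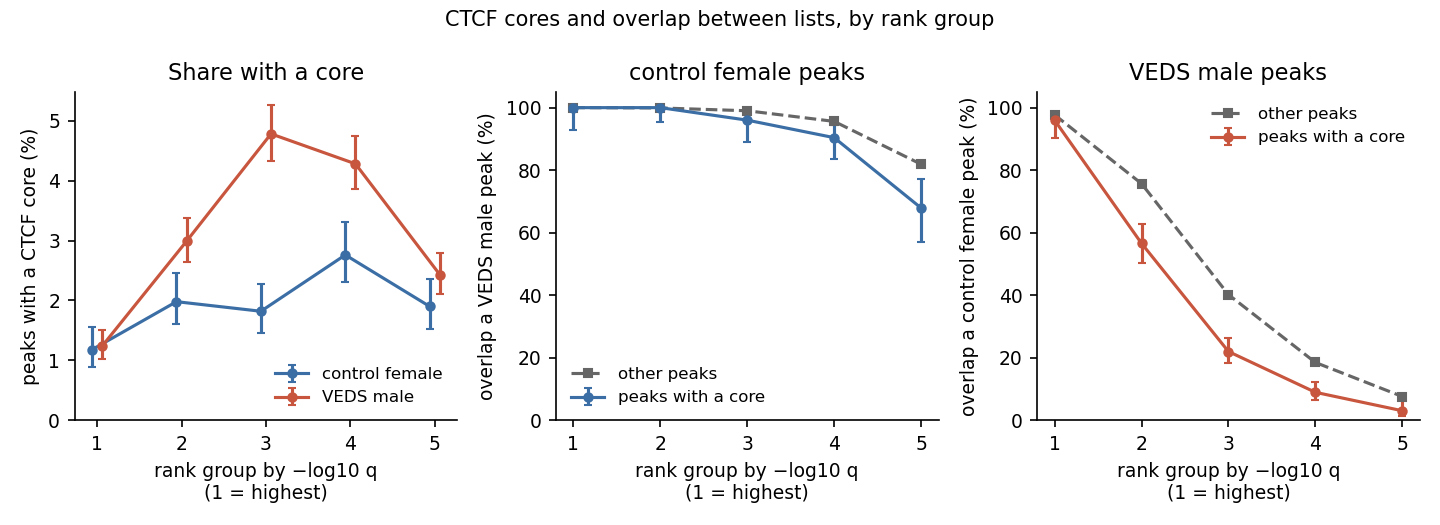
Left, the share of peaks with a CTCF core (%) in each of 5 rank groups of a list by −log10 q (1 is the highest). Middle and right, the share of peaks that overlap a peak of the other long list (%), for peaks with a core (solid, 95% Wilson intervals) and other peaks (dashed), showing the gap in the VEDS male list at 56.6% against 75.7% in the next to highest group.

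Counted by site, 339 of the 1363 (24.9%) were in summit windows of both lists, 70 in the control female windows only and 954 in the VEDS male windows only. Of the 70, 26 lay in a VEDS male peak outside its window and 37 had no VEDS male summit within 1 kb. Of the 954, 892 had no control female summit within 1 kb. The shared sites were of median rank 30.1% in the VEDS male list and 53.5% in the control female list, where 0% is the highest rank. The longer list also had more fragments at the summits of its members, with a median of 18 against 12 in the control female list. The part of library depth in these counts was not tested.

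The short lists shared few members. *Stard3nl*, which encodes a protein of late endosomes, had the only control male member, with 6 fragments at the summit, and its promoter was also a member in both long lists. The 3 VEDS female members lay at the promoters of *Ints7* and *Pnisr* and 43963 bp from *Adcy5*, with 6, 5 and 8 fragments. All 4 of these peaks overlapped a peak in both long lists, but the share of all short-list peaks that do so was not computed. The VEDS female summits lay 108, 118 and 142 bp from the core, farther than at most members of the long lists. The control male summit lay 32.5 bp from it.

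Sites pointed either way with equal frequency. Of the 409 control female sites 209 were on the plus strand (51.1%, 46.3 to 55.9), and of the 1293 VEDS male sites 647 (47.3 to 52.8%). Between 1344 pairs of neighbouring sites in either list, 334 (24.9%) were convergent, pointing towards each other, 335 (24.9%) divergent and 675 (50.2%) tandem, on the same strand. All 12226 neighbouring pairs of cores on chromosomes 1 to 19 gave 24.2%, 24.1% and 51.7%.

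Orientation varied with distance. At 200 to 500 kb, 86 of 280 pairs were convergent (30.7%, 25.6 to 36.3) and 58 divergent (20.7%, 16.4 to 25.8). At 500 to 1000 kb the order was the opposite, with 21.2% convergent (16.1 to 27.5) and 31.6% divergent (25.5 to 38.5) of 193 pairs. All cores gave 27.4% and 21.6% at the shorter of these distances and 26.3% and 23.8% at the longer. The intervals of the sites in peaks include the convergent shares of all cores, so that no departure of convergent pairs from them was detectable at either distance. For divergent pairs the interval included the share of all cores at 200 to 500 kb. At 500 to 1000 kb the interval of divergent pairs lay above 23.8% but overlapped the interval of all cores (21.0 to 26.8). Neighbouring pairs share sites, which intervals on pairs do not allow for. Neighbours among all cores have no core between them, while neighbouring sites in peaks can have other cores between them.

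Close neighbours were tandem. Of 25 pairs within 300 bp, 23 were on the same strand (92.0%, 75 to 97.8), at a median distance of 66.0 bp. The rows at *Eif3b* and *Gapt* gave 8 of the 25, and without them 15 of 17 were tandem (88.2%, 65.7 to 96.7). Cores in general showed the same, with 94.1% tandem of 85 such pairs. From 0.3 to 10 kb, 70.4% of 27 pairs in peaks were tandem (51.5 to 84.1), against 53.3% of all cores at that distance.

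**Figure D5:**
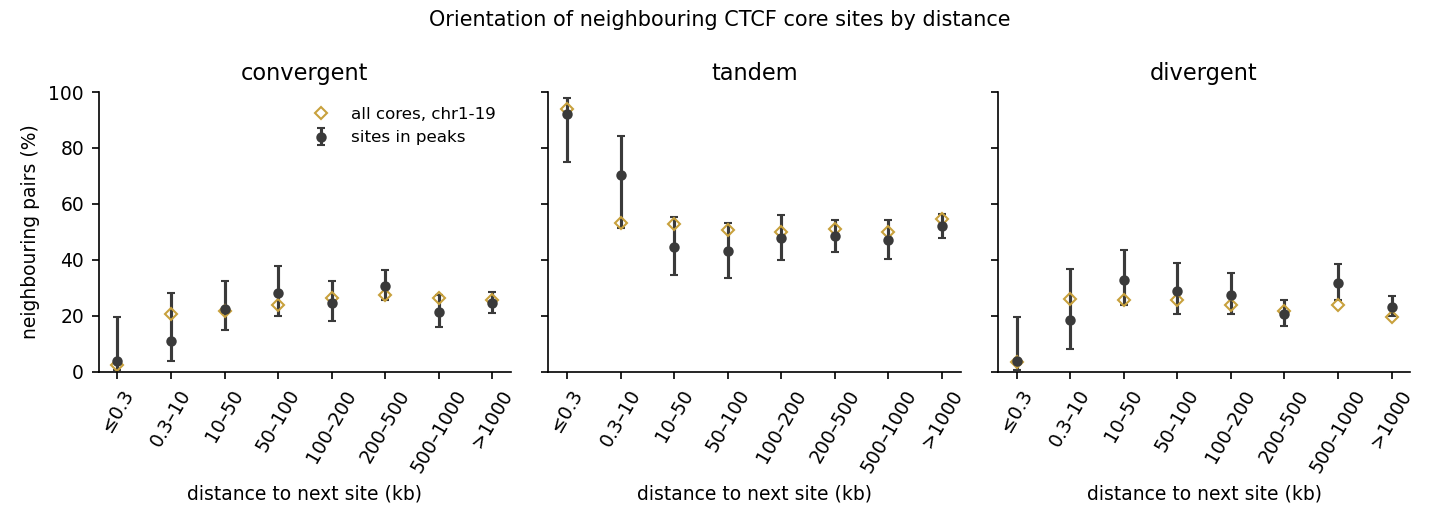
Share of neighbouring pairs of sites (%) that are convergent, tandem or divergent, by distance to the next site (kb), for the 1363 sites of either list (black, 95% Wilson intervals) and all cores of chromosomes 1 to 19 (open diamonds). Tandem pairs prevail within 0.3 kb in both (92.0% and 94.1%).

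Along the chromosomes the sites were a median of 522 kb apart (quartiles 173 and 1852 kb), and the longest stretch without one was 39.7 Mb, on chromosome 14. Chromosome 11 was the richest with 122 sites, or 1.03 per Mb, and chromosome 12 the poorest with 42, or 0.359 per Mb. The share of cores that lay in a window followed this order at its ends, with 14.2% on chromosome 11 and 7.46% on chromosome 12. The longest run of sites on the same strand had 10 members and lay on chromosome 5.

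Among named loci, searched with 50 kb on either side, 10 of 57 held a site, with 13 sites among 98 cores (13.3%), where all cores of chromosomes 1 to 19 gave 11.1%. There were 18 loci with no core at all, and the counts by class are given as a description only. Of the 18 loci of genes the study discusses 4 held a site, and of 15 loci of arterial wall genes 3. None of 5 imprinted and none of 4 Hox loci did. These loci, where CTCF sites are well known, held just 6 and 3 cores of this sequence.

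Of the genes of the arterial wall, *Col1a1* had its site in an intron 499 bp from the TSS, under a peak of both lists, with 16 fragments at the control female summit and 31 at the VEDS male one. The summit was 27.5 bp to the 3′ side of the core in the control female list and 27.5 bp to the 5′ side in the VEDS male list. At *Col3a1*, the gene that carries the VEDS substitution, the site lay in an intron 2487 bp from the TSS of the gene. Only the VEDS male list had a peak there, with 10 fragments and a −log10 q of 2.53, close to the lower end of the list (rank 40162 of 41444). *Myh11*, the smooth muscle myosin heavy chain, had a site in an intron 53850 bp from its nearest TSS. This site was again under a low VEDS male peak (16 fragments, −log10 q of 3.17). Both were among the lower peaks of the list by −log10 q, which had a median of 9.79 at its members.

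Around *Rbpms2*, which encodes an RNA-binding protein of smooth muscle, 3 of 5 cores were in VEDS male peaks, in the order minus, plus, plus. The middle one, 18402 bp from *Pif1*, was also in a control female peak, with 11 fragments there and 32 in the VEDS male library. Those near *Plekho2* and *Oaz2*, 1089 and 1782 bp from the TSS, had 30 and 16 fragments in the VEDS male library. *Prkag2* had the peak of highest rank among these loci, 3520 of 21176 in the control female list and 1503 of 41444 in the VEDS male list, with 25 and 81 fragments. Its core was 1 of 5 at the locus and lay in an intron 11212 bp from the TSS.

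*Svil* and *Synpo*, which encode the actin-associated proteins supervillin and synaptopodin, each had a site in the searched span that was in both lists. At the *Svil* locus the control female summit had 12 fragments and the VEDS male one 31, and at the *Synpo* locus 13 and 28. The site at *Svil* was intergenic, 47923 bp from the nearest TSS of *Svil* and 3544 bp from that of *Gm26682*. The site at *Synpo* was nearer to the TSS of *Ndst1*, at 15993 bp. The protocadherin clusters, where CTCF sites are known to direct the choice of promoter, held 22 cores in the searched span, and 1 of them was in peaks, in both lists with 17 and 41 fragments. That site lay in an intron of *Diaph1*, beside the clusters and not in them.

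The searched span of *Ctcf* had a pair of sites on the plus strand, both in VEDS male peaks only. They lay outside the gene, on either side of it. The site shown above lay 13991 bp from the *Ctcf* TSS in an intron of an *Agrp* transcript (25 fragments), and the other in a UTR of *Gfod2* (15 fragments). *Myc* had a site 1949 bp from its TSS, also in a VEDS male peak only (25 fragments). The 8 loci of CTCF, cohesin and its regulators held 8 cores in all, and the 2 in peaks were those beside *Ctcf*.

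The members of highest −log10 q were the same 5 in both lists. *Calr*, which encodes the calcium-binding chaperone calreticulin, had 61 fragments at its promoter summit in the control female list and 100 in the VEDS male one. *Stard3nl* had 38 and 95. The others lay at promoters of *Gm21769*, *2610005L07Rik* and *Gm10060* on chromosome 8, with 46 to 85 fragments in the control female list and 136 to 193 in the VEDS male list. The 60 bases around these 3 sites differed from each other at 1 or 2 positions, so the fragments of near-identical copies may not be told apart there, and their heights are uncertain.
Without the sites whose 60 bases recur, which include that at *Gm10060*, 392 control female and 1259 VEDS male members remained.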

How the data were processed

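Chromatin accessibility of aortic nuclei was measured by ATAC-seq in 4 libraries. The authors aligned reads to mm10 (GRCm38), removed duplicates by barcode, corrected for Tn5 cut sites, called narrow peaks in each library with MACS2 and left out blacklisted regions. The aligner and the threshold for a peak are not given in the sources used here. Each deposited peak has a score, a fold enrichment (a ratio to its library's local background), a −log10 p and a −log10 q. These are relative to their own library, so none was compared between libraries. Columns of peak names and strand were not used.

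Summits were read as peak start plus summit offset, and the 300 bp around each was searched on both strands for the 12-bp core in the GRCm38.p6 sequence, in which lower case marks repeats. Genes and TSS came from GENCODE vM21. Fragments at a summit were recovered from the deposited fold enrichment and −log10 p, assuming a Poisson background. On simulated data of 500 sequences or peaks, the core search and this step returned 100% of the true values. The simulated data were made with the same core pattern and formulas, so this checks the calculation only. It does not show that the deposited values count fragments in this way. Distances to a TSS are from the peak edge, or from the site where sites are counted. They run to the nearest start of any annotated transcript, which need not be the outermost start of the gene. Overlap means at least 1 bp. Shares have 95% Wilson intervals. With 1 library per genotype and sex, no test was made between genotypes, and peaks served as counts and not as replicates.

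The members, gene lists and comparisons were chosen with earlier results of these data known. Regions named are the 5 members of highest −log10 q in each list, the 3 with most cores, and those within 50 kb of 57 listed loci. The members of the short lists were named in addition, as were *Agrp* and *Gfod2*, which hold the sites near *Ctcf*. The alternatives tried were windows of 200 and 500 bp, sites anywhere in the deposited peak, a 14-bp core, −log10 q of at least 5 and 10, at most 50% masked bases, equal list size, other definitions of overlap, protein-coding TSS and a distance of 1 kb. Leaving out sites whose 60 bases recur was chosen once the data had been seen. The scripts ran in Python 3.11.15 (numpy 2.4.6; pandas 2.3.3; scipy 1.17.1; matplotlib 3.10.9).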

Additional observations from a re-analysis of the deposited data

How the results depend on the processing

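Of 98 values computed under alternative settings, 75 stayed within the 95% interval of the reported value (for counts, within 1.5 times), and 23 did not. The shares of sites on the plus strand, in masked bases and in convergent pairs did so under every setting. With a −log10 q of at least 10, 137 control female and 619 VEDS male members were left, of which 99.3% and 21.3% overlapped a peak of the other list and 66.4% and 41.8% lay within 3 kb of a TSS, and the median distance between sites was 1165 kb. With at least 5, 95.3% of control female members overlapped and the distance was 674 kb. At equal list size the VEDS male list had 543 members, 53.8% overlapped a control female peak, 43.6% lay within 3 kb of a TSS, 74.6% of control female members overlapped, and the distance was 1091 kb. The 14-bp core gave 712 kb. Overlap of at least 50% of both peaks gave 65.1% and 20.5%, the same site in both windows 83.2% of control female members, and sites anywhere in the peak 31.6% of VEDS male members. Within 3 kb of a protein-coding TSS were 40.7% and 27.5%, and within 1 kb of any TSS 37.9% and 21.5%. In the VEDS male list, members stayed below the other peaks in overlap, by −24.5 percentage points at equal list size (−28.7 to −20.3) and −17.9 at a −log10 q of at least 10 (−21 to −14.4). In the control female list the difference of −5.09 points turned to 0.263 at that threshold (−3.03 to 0.908), where 136 of 137 members overlapped. Fewer peaks enter under the stricter settings, and other causes were not tested. The number of fragments at a summit, with medians of 12 and 18 at members, limits what absence from a list can show. No paired analysis was possible because there was only 1 library for each genotype and sex.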

Other observations

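The CRE sequence (T, G, A, C, G, T, C, A) was also rarer beside the core. It was in 3 control female member windows (0.754%, 0.257 to 2.19), against 2.66% of the other windows. In the VEDS male list it was in 6 (0.472%, 0.217 to 1.03), against 1.83%. Promoter-proximal and distal windows were not compared separately, and fewer members than other peaks lay within 1 kb of a TSS. The median GC content was close to that of other windows, 54.3% against 56.0% in the control female list and 52.0% against 53.3% in the VEDS male list. Windows with over 50% masked bases made up 0.503% of control female members and 0.551% of VEDS male members, against 3.61% and 4.93% of the others. Peaks of the control male list overlapped 1 control female member (0.251%) and 502 of the other control female peaks (2.48%), and those of the VEDS female list 2 (0.503%) and 384 (1.90%).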
